A study of Mus musculus with 12 samples.

Results

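The nuclear genes for the subunits of oxidative phosphorylation (OXPHOS) were examined in cardiac macrophages (Mφ) of mice on the way to heart failure. Genes were taken by name, as those whose symbols begin with Ndufa, Ndufb, Ndufc, Ndufs or Ndufv and a digit, with Uqcr, with Cox and a digit from 4 to 8, or with Atp5, together with Sdha, Sdhb, Sdhc and Sdhd, pseudogene symbols left out, when they held at least 100 counts over the 12 libraries together. Of 24445 gene symbols in the tables, 84 had such a name and 81 reached 100 counts: 36 named for complex I, 4 for complex II, 8 for complex III, 16 for complex IV and 17 for complex V. Cox7b2 and Cox8c, isoforms known mainly from testis, were left out with 39 counts and 0 counts, and Ndufs5, a subunit of complex I in most tissues, with 1 count in all libraries. All 81 genes passed the filter on low counts, which kept 14608 genes.

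OXPHOS is carried out in the inner mitochondrial membrane. Complexes I and II pass electrons from NADH and succinate to ubiquinone, complex III passes them on to cytochrome c and complex IV to oxygen, and the proton gradient built on the way drives ATP synthesis by complex V. Most subunits are encoded in the nucleus and are made in step with a small set encoded by mitochondrial DNA, whose genes are not analysed here. In Mφ, oxidative metabolism is known as a feature of alternatively activated and tissue-resident cells, whereas inflammatory activation shifts ATP production towards glycolysis. The name rule does not follow function exactly. Ndufa4 is now regarded as a subunit of complex IV. Cox7a2l is a factor of respiratory supercomplexes. Atp5s and Atp5sl are known as a coupling factor and an assembly factor, rather than as subunits. Ndufab1, the acyl carrier protein of complex I, lies outside the rule.

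The cells were CD14+/CD64+ cardiac Mφ sorted by flow cytometry from hearts of adult male C57BL6/J mice, with 1 library per mouse and 4 mice per group. Control mice (Ct) carried a saline pump for 14 or 28 days, with the time of each Ct library not given in the sources used here, mice with early concentric hypertrophy (ECH) were infused for 14 days with isoproterenol (30 mg/kg/day), which stimulates β-adrenergic receptors, and mice with heart failure (HF) were infused at the same dose for 28 days. ECH and HF therefore differ in the time on the pump as well as in the stage of disease, and no Ct library is labelled as matched to either time. Marker genes of Mφ (8 of 8 detected, among them Cd14 and Fcgr1) summed to between 21916 and 32138 CPM in each library, where CPM is the count scaled to library size (TMM). Libraries held 88466559 to 111180291 counts, of which the 81 genes took 0.715 to 1.14%.

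Libraries differed within Ct before any group was compared. Ct 2 had the highest level of the 12 libraries for 55 of the 81 genes (67.9%, against 23.2% of all genes tested), and 76 of the 81 were higher in Ct 2 than the mean of the other 3 Ct libraries, with a median log2 difference of 0.72 (all genes -0.05). Ct 4, in contrast, had the lowest level for 52 genes. The excess in Ct 2 moved with transcript length. Its median was 0.83 for the 54 OXPHOS genes with transcripts under 1 kb and 0.37 for the 27 longer ones, and over all genes it was 0.49 under 1 kb and -0.11 at 1 kb or more. Among genes that are not muscle isoforms Cox7a2l had the largest excess, at 174 CPM in Ct 2 and 53.8 to 72.9 CPM in the others, while Sdha, the flavoprotein of complex II with a 2900 base transcript, was lower in Ct 2 (200 CPM) than in the others (261 to 379 CPM). Ct 2 also held the highest sums of B cell markers (460 CPM, 35.99 to 235.9 CPM elsewhere) and of neutrophil markers (1562 CPM, 118.5 to 1230 CPM elsewhere). Markers of other cell types moved with the groups as well. The 5 B cell genes summed to between 99.6 and 460 CPM in Ct, 36.0 and 81.7 CPM in ECH and 50.6 and 77.4 CPM in HF, so every Ct library lay above all others. All 5 were lower at an unadjusted p under 0.05 in ECH and in HF than in Ct (5.89% and 8.72% of all genes), and without Ct 2 4 were in each. The 6 T and NK cell markers had lower means in ECH and in HF than in Ct (medians -1.63 and -1.36, and -1.01 and -0.90 without Ct 2), at sums of at most 58.6 CPM. The 6 neutrophil markers had lower means in HF than in Ct (median -0.99, and -0.50 without Ct 2). Of the 8 fibroblast markers, 7 had higher means in ECH and 8 in HF (medians 1.19 and 0.67, and 0.89 and 0.38 without Ct 2). The part of these cells in the comparisons with Ct was not tested. The main counts and medians of the subunit genes that rest on Ct are therefore given with and without Ct 2, and single genes likewise where it moved them.

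**Figure D1:**
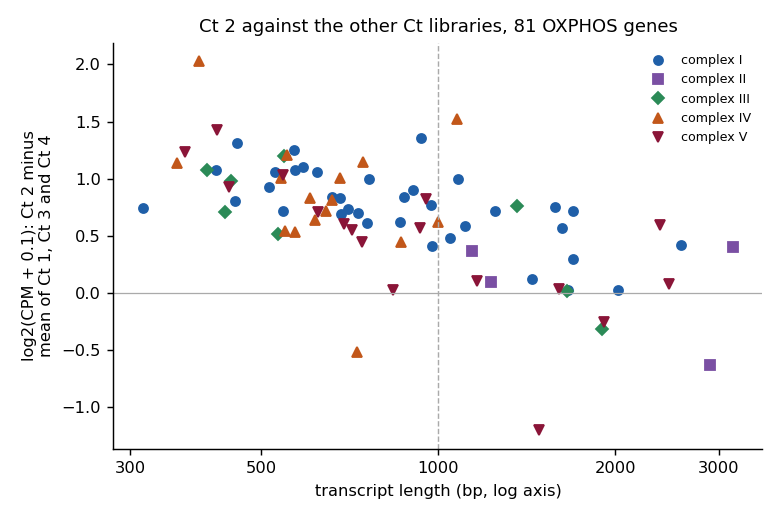
Difference in log2(CPM + 0.1) between Ct 2 and the mean of Ct 1, Ct 3 and Ct 4 (y axis) against transcript length in bases (x axis, log scale) for the 81 genes, each point 1 gene with its complex given by shape and colour; the dashed line marks 1000 bases. Points lie above 0 for 76 genes, and those to the left of the line have a median of 0.83 against 0.37 to the right.

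Levels of subunit genes spanned a wide range within each complex. Per kilobase of transcript, the scale on which genes can be compared, the median level over the 12 libraries was 86.0 CPM per kb for complex I, 113 for complex II, 166 for complex III, 143 for complex IV and 187 for complex V. The highest levels were those of Cox6a1 (410 CPM per kb), a small accessory subunit of complex IV, Cox4i1 (399.8), the ubiquitous form of another subunit of that complex, Atp5b (392), the catalytic β subunit of ATP synthase, and Uqcrb (383), an accessory subunit of complex III. Within complex I the highest was Ndufa4 (265) and within complex II Sdhb (160), its iron-sulfur subunit. The lowest levels belonged to the tissue isoforms Cox4i2 (0.21) and Ndufa4l2 (0.47), hypoxia-associated counterparts of Cox4i1 and Ndufa4, and among the others to Atp5s (5.79), Sdhc (33.1) and Uqcrc2 (41.9) in their complexes. The genes lie on 19 chromosomes with 3 on the X chromosome, so no cluster of neighbours makes up the set. For 25 of the 81, exons overlap those of another protein-coding gene in GENCODE M21 (GRCm38), among them Atp5a1, Atp5o, Cox4i1, Cox6a2, Ndufa4l2, Ndufs1, Ndufs3, Uqcrb and Uqcrc2, and since the strand setting of the counting is not given, their counts are less certain. Many small subunit genes also have processed copies elsewhere in the genome, and how reads shared with such copies were counted is not stated.

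Summed over the 81 genes, the level was 7889, 11717, 9377 and 6841 CPM in the Ct libraries, 9239, 9113, 8169 and 8135 CPM in ECH, and 10755, 9606, 10187 and 9974 CPM in HF. All 4 HF libraries were above all 4 ECH libraries, and Ct spanned both. Means of this sum were 8956 ± 2114 for Ct, 8664 ± 594 for ECH and 10130 ± 480 CPM for HF (SD, n = 4), and Ct without Ct 2 gave 8036 ± 1274 CPM (SD, n = 3). In the 2 isoproterenol groups the subunit genes varied less between mice than all genes tested did at the median. The median coefficient of variation was 10.5% in ECH and 8.76% in HF, against 21.6% and 23.01% over all genes tested, whereas in Ct it was 31.2% against 32.6%, and without Ct 2 18.3% against 21.8%. No set of genes matched for level was compared, and this difference in spread was not tested. In RNA of sorted cells, fewer cells of a type and less RNA per cell cannot be told apart.

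**Figure D2:**
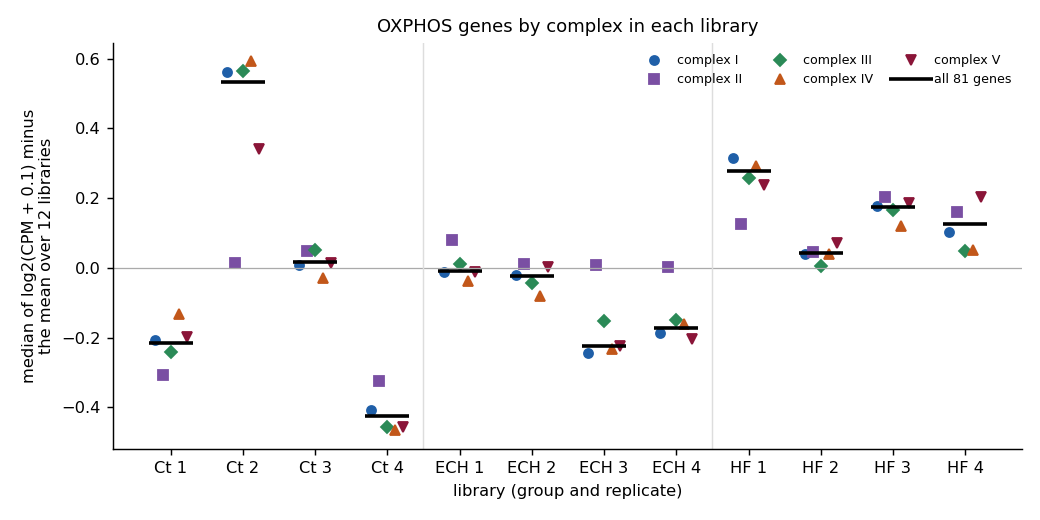
Median over the genes of each complex of log2(CPM + 0.1) minus the gene's mean over the 12 libraries (y axis), for every library by group and replicate (x axis); symbols are complexes I to V and the black bar is the median of all 81 genes. Bars lie at 0.53 in Ct 2 and -0.42 in Ct 4, from -0.22 to -0.01 in ECH and from 0.04 to 0.28 in HF.

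HF was compared with Ct to ask how Mφ of the failing heart differ from those of control hearts. Levels of 65 of the 81 genes were higher in HF (48.8% of all genes) and of 16 lower (51.2%), with a median log2 fold change of 0.13 (all genes tested -0.01). None passed the threshold of an FDR under 0.05 with a fold change of at least 2 in edgeR's quasi-likelihood test, which called 0.377% of all genes, and none reached an FDR under 0.05 at any fold (0.513% of all genes). At an unadjusted p under 0.05, 10 were higher (12.3% of the 81, against 7.35% of all genes) and 2 lower (8.72% of all genes). For 6 genes all HF libraries lay above all Ct libraries (4.59% of all genes), Ndufa10, Ndufa9, Atp5o, Atp5c1, Atp5a1 and, named after its values were seen, Ndufa12. Of these 6 genes, 5 had transcripts of 1 kb or more. Median log2 fold changes were 0.28 for the 27 long and 0.09 for the 54 short subunit genes. Without Ct 2 these medians lay together, at 0.36 and 0.35, and the part of transcript length was not tested. Ct 2 moved the counts over the 81 genes. Without Ct 2, 77 of the 81 were higher (49.1% of all genes), the median was 0.36, 45 were higher at an unadjusted p under 0.05 (8.24% of all genes) and 31 had HF libraries all above the 3 Ct libraries (7.32%). None had an FDR under 0.05 (0.427% of all genes; 0.293% also at 2-fold), and the lowest FDR was 0.0703. Ct 4, the library with the lowest levels, moved the counts the other way, and without it 40 of the 81 were higher (49.7% of all genes) with a median of 0.00. On all libraries DESeq2 gave 5 subunit genes with an FDR under 0.05 (6.17% of the 81, against 4.83% of all genes) and edgeR's likelihood ratio test 2 (2.47%, against 3.33%), shares near those of all genes.

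With all libraries the genes that led this comparison came from complexes I, III and V. Without Ct 2 Cox6b1 of complex IV was also among the leading genes, at 0.55 (FDR 0.124), against 0.37 (FDR 0.314) with all libraries. Of the 16 genes named for complex IV, 10 were higher with all libraries (median 0.10, 48.8% of all genes). Without Ct 2 14 were higher (median 0.30, 49.1% of all genes). Ndufa10, an accessory subunit of complex I (chr1:92439010-92473860, minus strand), had CPM of 44.3, 53.4, 63.5 and 51.4 in Ct, of 73.5, 74.2, 71.8 and 68.0 in ECH and of 84.0, 77.1, 75.6 and 80.8 in HF. Its 3 groups did not overlap, with Ct lowest and HF highest, and Ct 2 lay within the range of the other Ct libraries. The log2 fold change in HF against Ct was 0.58 (SE 0.12, FDR 0.0570 by edgeR), the lowest FDR of the 81 genes, and without Ct 2 it was 0.58 with an FDR of 0.0703. Its exact two-sided permutation p was 0.0286, the smallest that 4 against 4 libraries allow, or 0.168 adjusted over 129 tests. DESeq2 gave an FDR of 0.000547 and edgeR's likelihood ratio test 0.00625 for the same difference, and over 21 alternative settings the FDR ran from 0.000547 to 0.153.

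Ndufa9, an accessory subunit at the junction of the arms of complex I (chr6:126821721-126849136, minus strand), had CPM of 68.7, 82.9, 92.9 and 68.5 in Ct, 87.6, 88.7, 75.7 and 68.6 in ECH and 122, 103, 112 and 103 in HF. HF lay above every other library, and ECH and Ct overlapped. The log2 fold change in HF against Ct was 0.49 (SE 0.14, FDR 0.132 by edgeR) and 0.52 without Ct 2. Core subunits of complex I moved less or were more variable. Ndufs1, which carries iron-sulfur clusters of the NADH module, had a mean of 70.9 ± 11.6 CPM in Ct and 86.4 ± 7.20 CPM in HF (SD, n = 4; log2 fold change 0.28, FDR 0.332). For Ndufv1, the NADH-binding flavoprotein, the values were 73.6 ± 7.25 and 81.6 ± 4.13 CPM (0.15, FDR 0.570), and for Ndufs3 the log2 fold change was 0.04 (FDR 0.917). Ndufv2, Ndufs7 and Ndufs8 lay between, from 0.08 to 0.25, with FDR from 0.428 to 0.860. Without Ct 2 these 6 genes had log2 fold changes of 0.15 to 0.40, with 0.40 for Ndufs1 (FDR 0.156) and 0.18 for Ndufs3 (FDR 0.441).

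In complex V, the 3 genes whose HF libraries all lay above all Ct libraries encode parts of the rotary machine. Atp5o, the subunit of the peripheral stalk known as OSCP (chr16:91925214-91931687, minus strand), had CPM of 74.4, 82.3, 102 and 69.1 in Ct, 97.5, 93.2, 78.7 and 76.5 in ECH and 123, 103, 130 and 108 in HF. Atp5c1, the γ subunit of the central stalk (chr2:10056016-10080510, minus strand), had CPM of 216, 203, 198 and 157 in Ct, 205, 214, 204 and 209 in ECH and 280, 227, 256 and 248 in HF. In both of these genes HF was above the libraries of either other group, while ECH and Ct overlapped. Log2 fold changes in HF against Ct were 0.50 (SE 0.15, FDR 0.144) for Atp5o and 0.38 (SE 0.12, FDR 0.169) for Atp5c1. Atp5a1, the α subunit of the catalytic head (chr18:77773729-77782869, plus strand), had CPM of 376, 421, 465 and 360 in Ct, 485, 497, 491 and 441 in ECH and 480, 503, 506 and 531 in HF. Its HF libraries were above the Ct libraries and mingled with ECH (log2 fold change in HF against Ct 0.32, SE 0.11, FDR 0.210). Atp5b, its catalytic partner, had 569 to 812 CPM in Ct and 768 to 857 CPM in HF (0.34, FDR 0.259). The 3 genes of the c subunit, Atp5g1, Atp5g2 and Atp5g3, which encode the same mature protein, had log2 fold changes of 0.30, 0.00 and 0.20, with FDR from 0.400 to 0.995, and of 0.48, 0.29 and 0.35 without Ct 2.

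In complex III the paired core proteins were the leading genes with all libraries. Without Ct 2 Uqcrb led, with a log2 fold change in HF against Ct of 0.46 (FDR 0.176), followed by Uqcr11 (0.40, FDR 0.217). Uqcrc2 and Uqcrc1 then had 0.36 each (FDR 0.251 and 0.267). Uqcrc2 (chr7:120635176-120659524, plus strand) had CPM of 63.3, 53.7, 85.9 and 55.3 in Ct, 86.5, 87.5, 92.1 and 78.9 in ECH and 84.9, 86.0, 89.1 and 89.3 in HF. Ct 3 lay among the isoproterenol libraries and the other 3 Ct libraries below all of them. The log2 fold change in HF was 0.44 (SE 0.14, FDR 0.187), and without Ct 3 it was 0.61 with an FDR of 0.0310, 1 of 2 subunit genes then under 0.05 (1.08% of all genes; 0.0310 to 0.425 over 21 alternative settings). Uqcrc1 had a log2 fold change of 0.36 (FDR 0.241) and 354 CPM in HF 1 against 265 to 284 CPM in the other HF libraries. The Rieske iron-sulfur protein Uqcrfs1 had -0.19 (FDR 0.675), with its highest level, 126 CPM, in Ct 2, and 0.04 without that library (FDR 0.922). All 4 subunits of complex II, which is encoded by nuclear genes alone, had higher means in HF, with log2 fold changes of 0.35 for the membrane anchor Sdhc (FDR 0.264), 0.29 for Sdhb, 0.23 for Sdha and 0.22 for the other anchor, Sdhd. Without Ct 2 these were 0.45, 0.38, 0.09 and 0.25. The genes with an unadjusted p under 0.05 in the lower direction were Atp5sl, an assembly factor by function that was singled out after its values were seen (-0.55, FDR 0.287), and Cox8b, a muscle isoform described with its class below. Without Ct 2 neither was under an unadjusted p of 0.05 (Atp5sl -0.39, FDR 0.454).

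**Figure D3:**
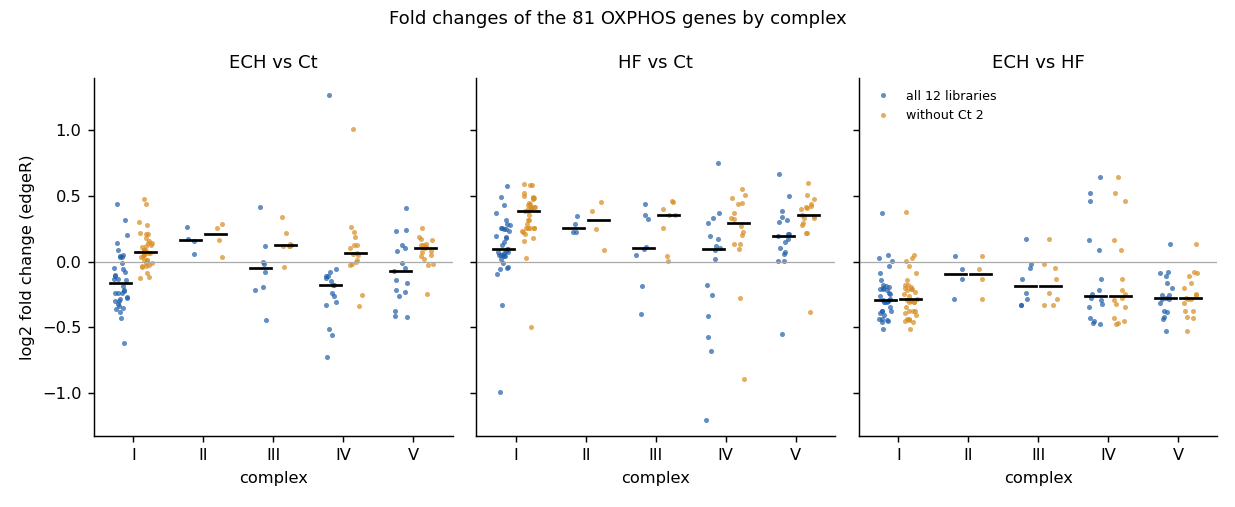
Log2 fold changes from edgeR (y axis) of the 81 genes by complex (x axis) in the 3 comparisons, with all 12 libraries (blue) and without Ct 2 (orange); each point is 1 gene and black lines are medians. Leaving out Ct 2 moved the medians over all 81 genes from -0.13 to 0.09 in ECH against Ct and from 0.13 to 0.36 in HF against Ct, and left that of ECH against HF at -0.26.

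ECH against Ct, the comparison for the compensated stage, gave no common direction that held without Ct 2. Levels of 22 genes were higher (51.1% of all genes) and 59 lower (48.9%) in ECH, with a median log2 fold change of -0.13 (all genes 0.01). Without Ct 2, 63 were higher (52.2% of all genes), the median was 0.09 and none was called (0.36% of all genes, or 0.427% at an FDR under 0.05 with any fold). Without Ct 4 the median was -0.27. None of the 81 passed the threshold in edgeR (0.356% of all genes) and none had an FDR under 0.05 at any fold (0.472% of all genes). At an unadjusted p under 0.05, 3 were higher (6.03% of all genes) and 0 lower (5.89%), and without Ct 2 7 were higher (6.25% of all genes). The 3 with all libraries were Ndufa10 (log2 fold change 0.44, SE 0.12, FDR 0.157), Uqcrc2 (0.42, SE 0.14, FDR 0.263) and Sdhd. Without Ct 2 their log2 fold changes were 0.44, 0.34 and 0.29, with FDR of 0.201, 0.411 and 0.370. Ndufa10 had an FDR of 0.0268 in DESeq2, the only subunit gene under 0.05 there (3.37% of all genes), and Uqcrc2 one of 0.0418 in edgeR without Ct 3 (0.866% of all genes), and over 22 alternative settings the FDR ran up to 0.947 in both genes. Sdhd, a membrane anchor of complex II (chr9:50596357-50603812, minus strand), had CPM of 122, 135, 135 and 123 in Ct, 159, 145, 151 and 163 in ECH and 131, 140, 163 and 166 in HF. Its ECH libraries, like those of Ndufa10 alone among the other subunit genes, were above all Ct libraries (4.33% of all genes; log2 fold change 0.27, SE 0.11, FDR 0.372), and HF spread across both. Without Ct 2, 5 subunit genes had ECH libraries all above the Ct libraries (6.3% of all genes).

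The genes of core subunits stood apart from the accessory ones in ECH against Ct, and so did long from short transcripts. The 20 catalytic or core genes had a median of 0.11 with 13 higher, and the other 61 a median of -0.21 with 9 higher. Genes with transcripts of 1 kb or more had a median of 0.11 and those under 1 kb one of -0.21. Without Ct 2 all 20 core genes and 43 of the other 61 were higher, and the medians lay closer, at 0.16 for core and 0.06 for other genes, and at 0.17 for long and 0.06 for short ones. Core genes are mostly long, so the 2 splits are not independent, and neither difference was tested.

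**Figure D4:**
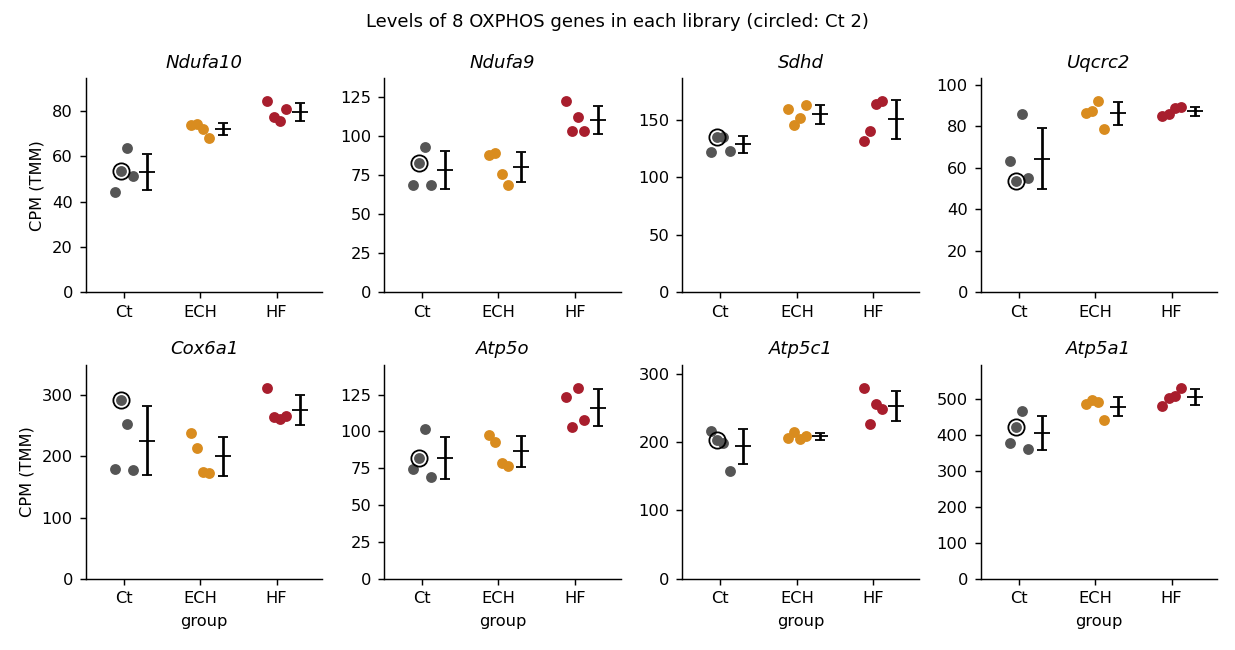
CPM (TMM-scaled, y axis from 0) of Ndufa10, Ndufa9, Sdhd, Uqcrc2, Cox6a1, Atp5o, Atp5c1 and Atp5a1 in each library by group (x axis); points are mice, bars with caps are the mean ± SD of 4 libraries, and the open circle marks Ct 2. In Ndufa10 the groups follow in the order Ct, ECH and HF without overlap, and in Ndufa9, Atp5o and Atp5c1 the 4 HF libraries lie above every ECH and Ct library.

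ECH against HF contrasts both stages under the same drug, and its fold changes do not rest on the Ct libraries, which enter through the shared estimate of spread. Levels of 69 of the 81 genes were lower in ECH (48% of all genes) and 12 higher (52%), with a median log2 fold change of -0.26 (all genes 0.02). For 29 genes (35.8%) all 4 ECH libraries lay below all 4 HF libraries, against 3.36% of all genes tested, and for 0 genes above (3.56%). Transcript length moved with this comparison too. Of the 29 genes 24 had transcripts under 1 kb, which is 44.4% of the 54 short subunit genes against 7.9% of all short genes, and 5 had longer ones, 18.5% of the 27 against 2.81% of all long genes. Median log2 fold changes were -0.29 for short and -0.13 for long subunit genes, and -0.13 and 0.03 for all short and all long genes. The median deviation of all short genes minus that of all long genes lay between -0.20 and -0.06 in the ECH libraries and between -0.04 and 0.19 in HF, with no overlap, and the part of transcript length in the result was not tested. Markers of other cell types moved in ECH against HF as well. Of endothelial markers 6 of 8 had higher means, of fibroblast markers 7 of 8 and of cardiomyocyte markers 9 of 12 (52% of all genes). Their medians were 0.98, 0.55 and 0.29. B cell, T and NK cell and neutrophil markers had medians of -0.11, -0.20 and 0.11. The part of these cells in the result was not tested. The size of the difference in the subunit genes was small. No OXPHOS gene passed the threshold in edgeR, nor did any of all genes tested (percent called 0, at any fold too), and 8 were lower at an unadjusted p under 0.05 (2.81% of all genes) and 0 higher (5.17%). The lowest FDR among the 81 was 0.534 in edgeR with 12 libraries and 0.350 without Ct 2, and DESeq2 gave 0 subunit genes with an FDR under 0.05 (0.505% of all genes). Without Ct 2, 33 genes were lower at an unadjusted p under 0.05 (4.58% of all genes).

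The 29 genes without overlap were 13 of 36 in complex I, 1 of 4 in complex II, 1 of 8 in complex III, 7 of 16 in complex IV and 7 of 17 in complex V. Medians were -0.29, -0.09, -0.19, -0.26 and -0.28 in the same order, so the genes of complex II, named for only 4 subunits, differed least. Ndufa9 had the lowest p (log2 fold change -0.46, SE 0.14, FDR 0.534), followed by Atp5o (-0.42, SE 0.15, FDR 0.549). Cox6a1 (chr5:115345642-115348981, minus strand) had 238, 214, 175 and 173 CPM in ECH and 312, 264, 261 and 266 CPM in HF, with 178 to 292 CPM in Ct. ECH was below HF in every library, and Ct overlapped both (ECH against HF -0.46, SE 0.17, FDR 0.564). Cox6b1, another accessory subunit of complex IV, had 139 to 184 CPM in ECH and 204 to 240 CPM in HF (-0.43, FDR 0.594). Ndufc1, a small accessory subunit of complex I (chr3:51404677-51408988, minus strand), had 52.9, 49.8, 35.2 and 32.0 CPM in ECH and 65.3, 57.1, 64.5 and 55.4 CPM in HF. In that gene, as in Cox6a1, ECH 3 and ECH 4 were lower than ECH 1 and ECH 2 (ECH against HF -0.51, SE 0.22, FDR 0.595). Further genes without overlap included Uqcrb (-0.33), Sdhc (-0.29), Ndufs8 (-0.30), Cox5a (-0.25), Cox5b (-0.22) and Cox7a2 (-0.32), with FDR from 0.631 to 0.821. Among core genes, Ndufv2 (-0.04), Uqcrc2 (-0.02) and Sdha (-0.06) had about the same mean in both groups, with 95% intervals of -0.34 to 0.26, -0.33 to 0.29 and -0.41 to 0.29.

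ECH was not uniform. ECH 3 and ECH 4 had medians of -0.22 and -0.17 below the mean of the 12 libraries over the 81 genes, and ECH 1 and ECH 2 of -0.01 and -0.02. Mφ markers summed to 22575 and 21916 CPM in ECH 3 and ECH 4, and to 32138 and 29190 CPM in ECH 1 and ECH 2. Endothelial markers summed to 107 and 71.6 CPM in ECH 3 and ECH 4. In ECH 1 and ECH 2 they summed to 38.4 and 43.9 CPM, and in HF to 25.7 to 46.4 CPM. The part of these cells in the levels of the subunit genes was not tested. The library numbers in the labels run from 3 to 6 in Ct, 1 and 2 in ECH 1 and ECH 2, 5 and 6 in ECH 3 and ECH 4, and 1 to 4 in HF, so that they could stand for one set of Ct with ECH 1 and ECH 2 and another of HF with ECH 3 and ECH 4, though the labels do not say that they mark a batch. Within the second set, 17 of the 81 genes were lower in ECH 3 and ECH 4 than in HF at an FDR under 0.05 in edgeR (3.64% of all genes, with 6.47% called in either direction), none of them by 2-fold (2.49% of all genes), with a median of -0.33. They were led by Ndufc1 (-0.85, FDR 0.0148) and Cox7b (-0.74, FDR 0.0175) and included Cox6a1 (-0.67), Cox6b1 (-0.60), Cox7a2 (-0.53), Atp5g1 (-0.49), Ndufa9 (-0.61), Ndufa4 (-0.70) and Atp5o (-0.58). Within the first set, ECH 1 and ECH 2 against Ct gave 0 genes (0.00674% of all genes), 1 higher at an unadjusted p under 0.05 (2.4% of all genes) and a median of -0.05. HF and Ct share no such set. A fit with the set as a term, which joins both sets through ECH, gave medians of -0.04 for ECH against Ct, 0.33 for HF against Ct and -0.33 for ECH against HF, with 0 subunit genes under an FDR of 0.05 (0.171, 1.51 and 2.97% of all genes in the same order).

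Muscle isoforms of complex IV were present at low levels and followed the markers of another cell type. Cox6a2, Cox7a1 and Cox8b are the heart and skeletal muscle forms of Cox6a1, Cox7a2 and Cox8a. Per kilobase, Cox6a2 reached 1.10 to 5.10% of Cox6a1 over the 12 libraries (median 2.26%), Cox7a1 6.65 to 28.9% of Cox7a2 (median 12.9%) and Cox8b 0.577 to 5.69% of Cox8a (median 1.94%). Cox8b had CPM of 6.40, 6.97, 1.98 and 2.34 in Ct, 2.33, 2.43, 2.65 and 4.61 in ECH and 1.80, 2.30, 2.83 and 0.760 in HF. High values in Ct 1, Ct 2 and ECH 4 set its spread, and the groups overlapped (HF against Ct -1.20, SE 0.55, FDR 0.305). The log2 fold changes of Cox6a2 and Cox7a1 in HF against Ct were -0.57 (FDR 0.578) and -0.68 (FDR 0.518). Without Ct 2 the values were -0.89 for Cox8b (FDR 0.460), -0.27 for Cox6a2 and 0.10 for Cox7a1, whose sign turned.

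The 12 cardiomyocyte markers, all detected, had summed CPM from 118 to 309 in Ct, from 106 to 203 in ECH and from 83.5 to 142 in HF. Their 4 highest libraries were Ct 2 (309 CPM), Ct 1 (243 CPM), ECH 4 (203 CPM) and ECH 3 (183 CPM), and these were also the 4 highest for all 3 muscle isoforms as a share of their partners. Of the 12 markers 11 had lower means in HF than in Ct, 5 of them at an unadjusted p under 0.05 (8.72% of all genes) and 0 called, with a median log2 fold change of -0.78. Without Ct 2, 8 of the 12 had lower means, 3 at an unadjusted p under 0.05, with a median of -0.36. The part of RNA from cardiomyocytes in the levels of the isoforms was not tested. Other isoform genes were rare without that order. Cox4i2 stayed between 0 and 0.31 CPM, Ndufa4l2 between 0 and 1.15 CPM and Cox6b2, a form known from testis, between 2.93 and 11.1 CPM. Cox4i1, the ubiquitous partner of Cox4i2, had 562 CPM in Ct 2 and 209 to 347 CPM elsewhere.

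**Figure D5:**
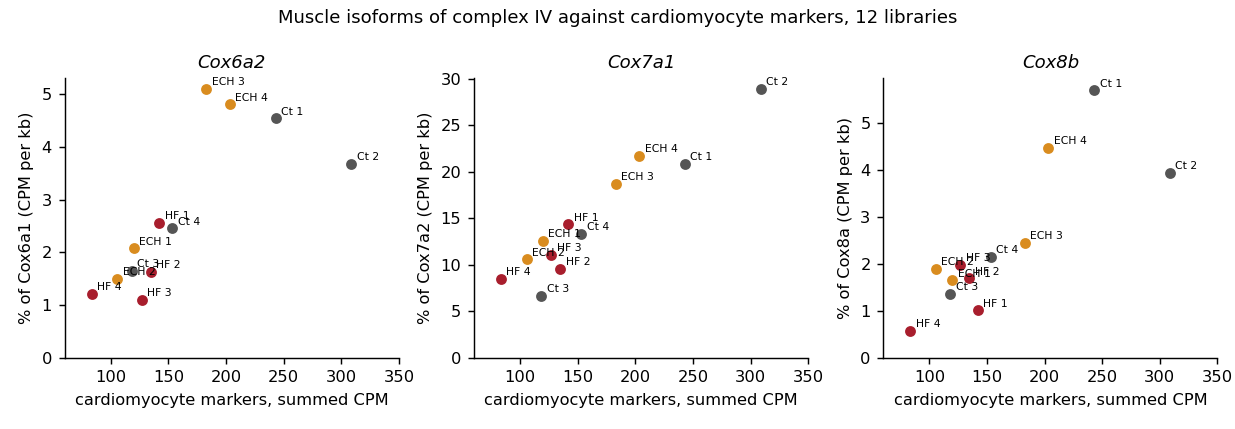
Level of Cox6a2, Cox7a1 and Cox8b as a percentage of Cox6a1, Cox7a2 and Cox8a, all in CPM per kb (y axes from 0), against the summed CPM of 12 cardiomyocyte markers (x axes), each point 1 library named beside it and coloured by group (grey Ct, orange ECH, red HF). Ct 1, Ct 2, ECH 3 and ECH 4 take the 4 highest places on both axes in each panel.

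Genes around the respiratory chain were taken from lists of known function, and none of them was called in any comparison. Over all genes tested, 48.8% had higher means in HF than in Ct and 51.1% in ECH than in Ct, and at an unadjusted p under 0.05 7.35% were higher and 8.72% lower in HF than in Ct. Of 14 genes for electron carriers, dehydrogenases and inner-membrane transporters, 12 had higher means in HF than in Ct (median 0.26), 4 of them at an unadjusted p under 0.05. These were Etfdh and Etfa, which feed electrons from fatty acid oxidation (0.52 and 0.38, FDR 0.169 and 0.189), Cycs, cytochrome c (0.50, FDR 0.257), and Ndufab1 (0.43, FDR 0.258). Without Ct 2, 13 of the 14 had higher means, with a median of 0.32. In ECH against HF the median was -0.08. Ucp2, a mitochondrial carrier of the uncoupling protein family, went another way, with CPM of 1638, 1062, 1120.2 and 1261 in Ct, 1502, 1506, 3856 and 3556 in ECH and 1669.5, 1495, 1197 and 1428 in HF. It was high in ECH 3 and ECH 4, the ECH libraries in which the subunit genes were lowest, and at the level of the other groups in ECH 1 and ECH 2 (ECH against Ct 1.04, FDR 0.159). In the tricarboxylic acid cycle, 14 of 18 genes had higher means in HF and 14 of 18 in ECH than in Ct, with medians of 0.22 and 0.14, and Dlat, a subunit of pyruvate dehydrogenase, had 0.40 in both (FDR 0.225 and 0.302). Without Ct 2 the medians were 0.21 and 0.10, and Dlat had 0.30 in HF and 0.29 in ECH.

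Among 15 assembly factors of complex I, 9 had higher means in HF than in Ct (median 0.24), with 2 at an unadjusted p under 0.05, Tmem126b (0.47, FDR 0.219) and Ndufaf4 (0.83, FDR 0.282), of which without Ct 2 only Tmem126b had one under 0.05 (0.35, and 0.62 for Ndufaf4). Without that library 13 of the 15 had higher means, with a median of 0.21. Of 32 tested assembly factors of complexes II to V, 21 had higher means (median 0.09), with 4 at an unadjusted p under 0.05 led by Uqcc1, a factor for cytochrome b (0.47, FDR 0.143), and without Ct 2 27 had higher means (median 0.18). Of 15 tested regulators of mitochondrial biogenesis, 4 had higher means in HF than in Ct, with a median of -0.17. The 4 with an unadjusted p under 0.05 were all lower. They were Ppargc1b and Ppargc1a, coactivators of mitochondrial genes (-1.08 and -4.93, FDR 0.187 and 0.265), Esrra, a nuclear receptor partner of both (-0.56, FDR 0.236), and Yy1 (-0.67, FDR 0.243). Ct 2 held the highest level of each, and for Ppargc1a it held 4.06 CPM where the highest other library held 0.713 CPM. Without Ct 2 the median of the list was -0.09, with 5 of 15 higher, and the log2 fold changes were -0.74 for Ppargc1b (FDR 0.295), -2.16 for Ppargc1a (FDR 0.613), -0.42 for Esrra (FDR 0.335) and -0.40 for Yy1 (FDR 0.407). Nrf1, a transcription factor of many OXPHOS promoters, stood at 38.6 to 49.4 CPM, and Gabpa at 46.0 to 74.7 CPM in the 12 libraries.

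Promoters were inspected because levels of the subunit genes shifted together from library to library. Sequences from RefSeq (GRCm38.p6), reaching from 250 bases before to 50 bases after a gene start, were matched to 64 of the 81 genes with 69 promoters, and 3 motifs were searched on both strands. The palindromic binding motif of NRF1, 10 bases long, was in 5 of the 69 promoters (7.25%, against 0.971% of 32851 promoters of all genes). The core CCGGAAG, bound by ETS factors such as GABP, was in 16 (23.2%, against 8.86%), and the GC box GGGCGG in 26 (37.7%, against 35.7%). The 5 sites of the palindrome are shown since they name the subunit genes that carry it, each with 10 bases on either side, 5′ to 3′ on the gene's strand and with the palindrome in capitals.
Atp5g2, chr15:102671070-102671099, minus strand, in an exon of GENCODE M21: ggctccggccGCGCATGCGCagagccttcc
Atp5k, chr5:108434430-108434459, minus strand, across the gene's start with 11 bases upstream: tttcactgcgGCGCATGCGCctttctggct
Cox6a1, chr5:115349101-115349130, minus strand, upstream of the gene: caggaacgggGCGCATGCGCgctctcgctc
Ndufa11, chr17:56717692-56717721, plus strand, upstream of the gene: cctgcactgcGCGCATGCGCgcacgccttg
Uqcrc1, chr9:108936668-108936697, plus strand, in an exon: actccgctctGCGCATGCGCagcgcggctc
A match to these letters is a description of the sequence and not evidence of binding in Mφ.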

How the data were processed

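RNA of sorted CD14+/CD64+ cardiac Mφ from 12 mice (4 Ct, 4 ECH, 4 HF) was extracted with the Nucleospin RNA XS kit, amplified with SMART-Seq v4 and sequenced in pairs on a NextSeq 500. The authors trimmed reads with Trimmomatic after FastQC, aligned them with TopHat2 to mm10 and assigned them to genes with featureCounts. Each file deposited by the authors holds raw counts per gene symbol of 1 library, with no normalization. Versions, annotation, strand setting and the handling of reads with several matches are, in the sources used here, not given.

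Counts were fitted in R 4.3.3 with edgeR 4.0.16 (limma 3.58.1): filterByExpr by group (14608 genes), TMM scaling and the quasi-likelihood test with 1 mean per group over 12 libraries. The FDR is the Benjamini-Hochberg adjusted p over 14608 genes. Genes were called where it lay under 0.05 and the change reached 2-fold. ECH vs Ct and HF vs Ct share the Ct libraries, and the groups of all 3 comparisons overlap in this way. Exact permutation tests on log2(CPM + 0.1) were run for 43 named genes in 3 comparisons (129 tests). Intervals are 95% intervals of the fit. The spread measured is that between mice of a group. The script was tested on simulated data. Transcript lengths are those of principal coding transcripts in GENCODE M21, and all 81 genes were matched.

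Genes were named when they encode a catalytic or core subunit, belong to a pair of tissue isoforms, are among the 6 with the lowest p of a comparison, or have the highest or lowest CPM per kb of their complex. The genes, the lists and the tests were chosen with earlier results of these data known. Alternatives were RLE and upper-quartile scaling, no filter beyond 1 count, DESeq2 1.42.0, edgeR's likelihood ratio test, only the compared groups, a replicate block, the library number set, and leaving out each library.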

Additional observations from a re-analysis of the deposited data

Results flagged for a closer look

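Dixon's test for a sample far from the others in its group of 4 was applied, in each of the 3 groups, to the CPM of the 43 named genes and to the summed CPM of all 81, 132 sets of 4 values in all, and 4 stood out. Chance alone gives about 1 in 20, so 4 of 132 is not more than chance gives. Cox7a2l, a factor of respiratory supercomplexes, was at 174 CPM in Ct 2, against 53.8 to 72.9 CPM in the other Ct libraries. Cox8b, a muscle isoform of complex IV, was at 4.61 CPM in ECH 4, against 2.33 to 2.65 CPM. In HF 1, Cox6a1 was at 312 CPM, above the 261 to 266 CPM of the other HF libraries, and Atp5b at 768 CPM, below the 847 to 857 CPM of the others.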

How the results depend on the processing

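No gene of the 81 was called at 2-fold with an FDR under 0.05 under any of the 22 settings that gave a value. At an FDR under 0.05 and any fold, where 12 libraries in edgeR's quasi-likelihood test gave 0 genes in each comparison, DESeq2 gave 1 in ECH vs Ct (3.37% of all genes) and 5 in HF vs Ct (4.83%), the likelihood ratio test 2 in HF vs Ct (3.33%), and ECH 3 and ECH 4 against HF (the same library number set) 17; the cause was not tested, though the last compares fewer samples. Leaving out 1 library gave 0 to 1 genes in ECH vs Ct, 0 to 2 in HF vs Ct (the highest in both without Ct 3, with 0.866% and 1.08% of all genes) and 0 in ECH vs HF. The median log2 fold change ranged with 1 library left out from -0.27 (without Ct 4) to 0.09 (without Ct 2) in ECH vs Ct, from 0.00 (without Ct 4, 40 genes higher) to 0.36 (without Ct 2) in HF vs Ct, and from -0.30 to -0.23 in ECH vs HF. With Ct 2 and HF 1 both left out, chosen after the values were seen, medians were 0.08, 0.31 and -0.23. RLE and upper-quartile scaling moved no median by more than 0.03. For the 43 named genes, 121 of 2795 alternative values had another sign than the value reported, with an unadjusted p of at least 0.05 in both.

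Replicate numbers shared between groups did not pair the mice: of 12 pairs with the same number, 0 correlated above 0.1 in their deviations from the group means (r from -0.08 to 0.08). With the number as a replicate block, medians were -0.12, 0.18 and -0.27, and 0 genes had an FDR under 0.05. Scaling without mitochondrially encoded genes was not run, since the tables used hold none. At this depth Cox4i2 and Ndufa4l2, with 0 counts in some libraries, are the genes limited by counting.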
